A study of Homo sapiens with 3 samples.

Results

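The matrix metalloproteinases (MMPs), the ADAMTS proteases and the tissue inhibitors of metalloproteinases (TIMPs) were followed in a lung cancer cell line and in 2 lines derived from it that resist osimertinib. This family was chosen with earlier results of these data known. Within it the genes were taken by symbol alone, as every non-control probe annotated MMP, ADAMTS or TIMP with a number. This gave 46 of the 43316 genes on the array, made up of 23 MMPs, 19 ADAMTS genes and 4 TIMPs. MMPs are zinc-dependent proteases that are made as inactive precursors and cleave collagens, laminins, fibronectin, proteoglycans and many cell surface proteins. ADAMTS enzymes are secreted relatives that carry thrombospondin repeats and cut proteoglycans, procollagens or von Willebrand factor, while TIMPs bind the active site of these enzymes and block them. In lung carcinoma the family is known for remodelling of the matrix and the basement membrane around tumor cells.

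H1975 (NCI-H1975) is a non-small cell lung cancer line that carries mutant EGFR and is sensitive to osimertinib, an EGFR tyrosine kinase inhibitor. OR1 and OR2 are osimertinib-resistant clones that were raised independently from H1975 by stepwise exposure to rising osimertinib, to a highest dose of 2 μmol/L over 4 months, and all 3 lines grew in the same serum-containing medium. Total RNA of each line was hybridized to 1 Agilent single-colour array, with the 3 arrays on 1 slide, so that differences between lines have no replicate check. Whether osimertinib was present when RNA was taken is not given in the sources used here.

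Levels are given as scaled intensity, the brightness of a gene's brightest probe with the 75th percentile of every array set to 100. A gene counts as detected where the scanner software marks its probe as well above background, and the lowest detected signals of the 3 arrays were 7.98, 8.26 and 7.80 for H1975, OR1 and OR2. Of the 58200 probes, between 45.6% and 45.9% were detected on each array, and no spot was saturated. A gene was called higher at a ratio to H1975 of at least 2 and lower at a ratio of at most 0.5. Where 1 side was not detected, the ratio was taken against the lowest detected signal of that array, or against the probe's own signal if that was higher, and is written as a bound. The software's own error estimates give the technical SD of a log2 ratio, which had a median of 0.20 over all genes and lay between 0.20 and 0.33 for the genes described here.

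Of the 46 genes, 27 were detected in at least 1 line (58.7%, against 51.8% of all genes on the array) and 21 in all 3 lines. The 19 genes not detected in any line were MMP7, MMP8, MMP10, MMP12, MMP16, MMP20, MMP21, MMP26, MMP27, ADAMTS1, ADAMTS3, ADAMTS5, ADAMTS8, ADAMTS12, ADAMTS15, ADAMTS18, ADAMTS19, ADAMTS20 and TIMP3. Both matrilysins, the small MMPs MMP7 and MMP26 that lack a hemopexin domain, were in this group, as was TIMP3, the inhibitor that stays bound to the matrix. The plot of levels shows the 27 detected genes in the 3 lines.

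**Figure D1:**
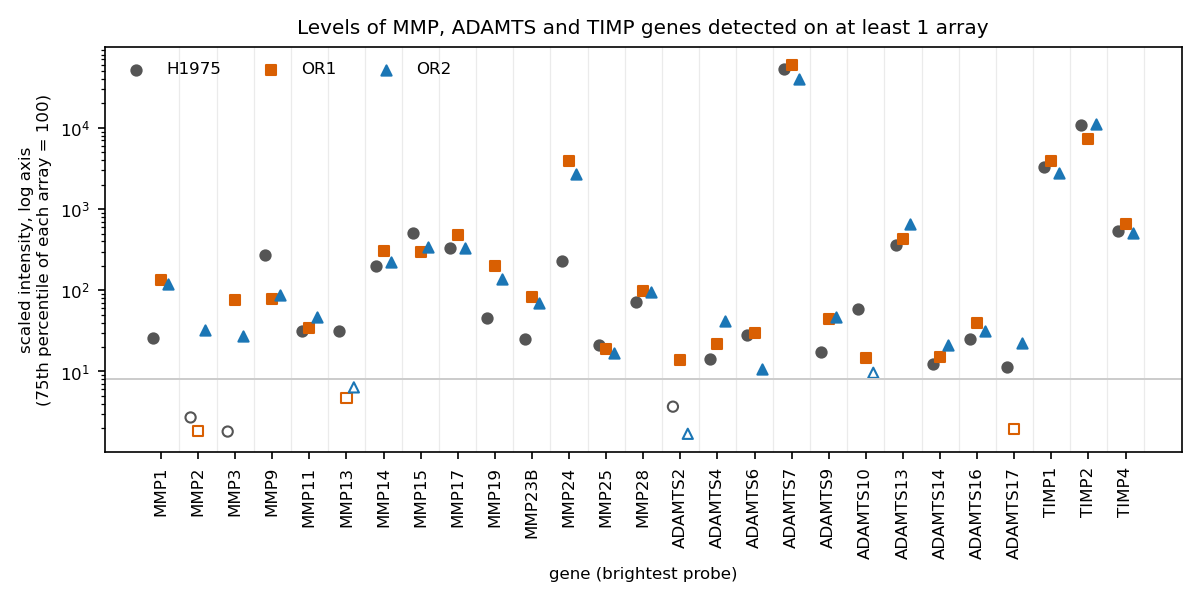
Scaled intensity (log axis, 75th percentile of each array = 100) of the brightest probe of each MMP, ADAMTS and TIMP gene detected in at least 1 line, with 1 array per line. Filled symbols were well above background and open symbols were not, and the grey band spans the lowest detected signals of the 3 arrays, from 7.80 to 8.26. MMP24 separates H1975 at 229.8 from both resistant lines, while the symbols of TIMP1, TIMP2 and TIMP4 lie close together.

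In OR1, 6 genes were called higher and 3 lower than in H1975, of 26 with a ratio. Over all 21869 genes with a ratio in OR1, 9.17% were called higher and 9.58% lower, so 23.1% and 11.5% of these genes stand against those shares. In OR2, 8 were called higher and 4 lower of 26, which is 30.8% and 15.4% against 7.72% and 8.7% of 21689 genes. Both resistant lines shared 6 higher genes (MMP1, MMP3, MMP19, MMP23B, MMP24 and ADAMTS9) and 3 lower genes (MMP9, MMP13 and ADAMTS10). These make 22.2% and 11.1% of the 27 detected genes, against 5.09% and 6.32% of 22418 genes, and as both ratios are taken against the same H1975 array the shared calls are not independent of it. The median log2 ratio of the genes with a ratio was 0.28 in OR1 and 0.37 in OR2, against 0.04 and -0.06 over all genes.

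Among the membrane-type MMPs, which are anchored at the cell surface, MMP24 was the gene that changed. MMP24 (NM_006690, probe at hg19 chr20:33864708-33864767) encodes MT5-MMP, which is best known from the nervous system, where it cleaves N-cadherin. H1975 gave a scaled intensity of 229.8, OR1 of 3856 and OR2 of 2720.4. Both resistant lines thus lay far above the parental line, by 16.8-fold in OR1 and 11.8-fold in OR2 (technical SD of the log2 ratio 0.20 in each). OR2 stood at 0.71 of the level of OR1. The 20 nearest genes detected in all 3 lines had median log2 ratios of 0.67 for OR1 and 0.55 for OR2, against 4.07 and 3.57 for MMP24 itself. The farthest of them lay 432 kb away.

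The other detected membrane-type MMPs stayed inside the call limits, except that scaling on spike-in probes put MMP15 at 0.38 of H1975 in OR1. MMP14 (MT1-MMP, the activator of pro-MMP2) gave 199.0 in H1975, 307.3 in OR1 and 219.9 in OR2. MMP15 (MT2-MMP) gave 513.1, 293.6 and 337.8, so that both resistant lines were lower, with log2 ratios of -0.81 and -0.60 and a technical SD of 0.20. MMP17, which is held in the membrane by a GPI anchor, gave 334.0, 472.8 and 329.4, and its OR1 ratio of 1.42 was 0.94 with spike-in scaling. MMP25, also GPI-anchored, gave 20.9, 19.1 and 16.9, near the lower end of what the arrays detected, and its other probe was detected in OR1 alone, at 9.8.

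The interstitial collagenases, which cut fibrillar collagens, moved in opposite directions. MMP1 (NM_002421, probe at hg19 chr11:102660697-102660756), collagenase 1, gave 26.0 in H1975, 133.5 in OR1 and 120.3 in OR2, which is 5.14-fold and 4.63-fold higher (technical SD of each log2 ratio 0.23). MMP13 (NM_002427, probe at hg19 chr11:102813773-102813832), collagenase 3, gave 31.7 in H1975 and was not detected in OR1 (4.7) or OR2 (6.4). The bound on the ratio was thus 0.26 for OR1 and 0.25 for OR2, as upper limits. MMP8, the neutrophil collagenase, was not detected.

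The stromelysins cleave proteoglycans, laminin and fibronectin and can activate other pro-MMPs. MMP3 (NM_002422, probe at hg19 chr11:102706694-102706753), stromelysin 1, was not detected in H1975 (1.8) and gave 75 in OR1 and 27.7 in OR2. It was at least 9.40-fold higher in OR1 and at least 3.47-fold higher in OR2. Both resistant lines had MMP3, but OR2 held only 0.37 of the level of OR1 (technical SD of the log2 ratio 0.22). With another background correction (normexp) its OR2 ratio to H1975 was 1.46 and was not called. The difference between OR1 and OR2 was not called with normexp or with spike-in scaling. MMP11, stromelysin 3, gave 31.3, 34.6 and 46.8 and was not called, and MMP10, stromelysin 2, was not detected.

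MMP1, MMP3 and MMP13 lie in the MMP gene cluster on chromosome 11, where probes for 9 MMPs span 419.8 kb in hg19. From MMP7 the order is MMP20, MMP27, MMP8, MMP10, MMP1, MMP3, MMP12 and MMP13. The other 6 genes were not detected in any line. The MMP3 probe lies 46.0 kb from that of MMP1 and the MMP13 probe 153.1 kb from it, on the same side. So the 2 genes called higher were next to each other among the probes of this cluster, and the gene called lower sat at its end, with undetected MMP12 between. The 20 nearest genes detected in all 3 lines had median log2 ratios of 0.31 for OR1 and 0.29 for OR2 around each of the 3 genes. They reached as far as 4522, 4341 and 4234 kb from MMP1, MMP3 and MMP13, so the sets overlap and are not separate checks.

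**Figure D2:**
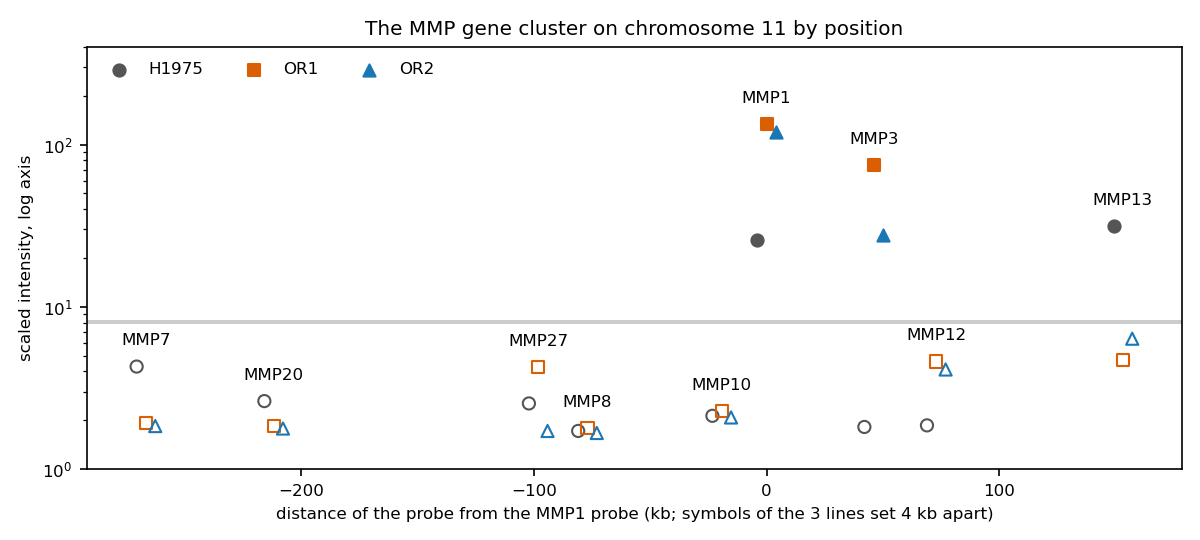
Scaled intensity (log axis) of the 9 MMP genes of the chromosome 11 cluster against the distance of each probe from the MMP1 probe in kb, with 1 array per line. Open symbols were not well above background and the grey band spans the lowest detected signals. MMP1 and MMP3 are higher in OR1 and OR2, MMP13 is detected in H1975 alone, and the other 6 genes lie below the band in every line.

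The gelatinases cut denatured collagen and type IV collagen of the basement membrane. MMP9 (NM_004994, probe at hg19 chr20:44645121-44645180), gelatinase B, gave 275.6 in H1975, 78.5 in OR1 and 87.3 in OR2. It was lower in both resistant lines, by 3.51-fold and 3.16-fold (technical SD of each log2 ratio 0.21). MMP2 (NM_004530, probe at hg19 chr16:55540518-55540577), gelatinase A, was not detected in H1975 (2.7) or OR1 (1.9) and gave 32.7 in OR2. It was at least 4.10-fold higher in OR2 than in H1975 and at least 3.96-fold higher in OR2 than in OR1, but with another background correction (normexp) its ratio to H1975 was 1.56 and was not called. H1975 and OR1 therefore had 1 detected gelatinase, MMP9, and OR2 had both.

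Of the remaining MMPs, 3 were detected and 2 of them were higher in both resistant lines, beside 5.09% of all genes. MMP19 (NM_002429, probe at hg19 chr12:56230436-56230495), which cleaves basement membrane proteins, gave 45.9 in H1975, 196.6 in OR1 and 138.7 in OR2, 4.29-fold and 3.02-fold higher. A dimmer probe for MMP19 gave 28.3, 35.4 and 33.8, with ratios of 1.25 and 1.20 that are not called, so the 2 probes of this gene disagree in size. With the median over its probes, MMP19 had ratios of 2.31 and 1.90 and was no longer called in OR2. MMP23B (NM_006983), a membrane-spanning MMP without a hemopexin domain, gave 25.3, 82.6 and 69.6, or 3.26-fold and 2.75-fold higher. This value is uncertain as to the gene, because MMP23A is a near-identical copy. MMP28 (epilysin), known from keratinocytes, gave 72.4, 99.1 and 95.6 and was not called.

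Among the ADAMTS genes, 10 of 19 were detected and 2 were called in the same direction in both lines. Of these 1 was higher and 1 lower, beside 5.09% and 6.32% of all genes. ADAMTS9 (NM_182920, probe at hg19 chr3:64501589-64501648), which cleaves the proteoglycans aggrecan and versican, gave 17.5 in H1975, 44.6 in OR1 and 46.6 in OR2. It was 2.56-fold and 2.67-fold higher (technical SD of each log2 ratio 0.26). The OR1 call was lost with spike-in scaling, at a log2 ratio of 0.76, and both calls with normexp. Its 20 nearest detected genes, the farthest at 3219 kb, had median log2 ratios of 0.53 and 0.39. ADAMTS10 (NM_030957, probe at hg19 chr19:8645126-8645185), which binds fibrillin microfibrils, gave 59.2 in H1975 and 14.7 in OR1 and was not detected in OR2 (9.6). It was 4.01-fold lower in OR1 and at least 6.14-fold lower in OR2, where the bound was taken against its own undetected signal. With normexp the ADAMTS10 ratios were 0.60 in OR1, not called, and 0.49 in OR2.

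Promoter windows of GRCh38.p14 from RefSeq, the 250 bases before the annotated start on the gene's strand, were held for 27 of the 46 genes (28 windows) and for 3 of the 9 genes called in both lines. These windows are shown because they belong to genes that moved in both resistant lines. Searched on both strands were the AP-1 motif, spelled TGAGTCA, and the core motif of ETS factors, spelled AGGAAG. The TATA box was searched as well, spelled TATAAA, and none of the 3 holds another within it. Capitals mark a match.
MMP24 (chr20:35226440-35226689, plus strand): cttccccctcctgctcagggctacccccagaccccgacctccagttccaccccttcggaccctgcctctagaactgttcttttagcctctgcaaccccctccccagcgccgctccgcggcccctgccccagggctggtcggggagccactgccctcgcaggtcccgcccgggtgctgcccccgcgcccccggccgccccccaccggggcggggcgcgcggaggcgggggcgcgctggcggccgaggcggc
MMP23B (chr1:1631923-1632172, plus strand): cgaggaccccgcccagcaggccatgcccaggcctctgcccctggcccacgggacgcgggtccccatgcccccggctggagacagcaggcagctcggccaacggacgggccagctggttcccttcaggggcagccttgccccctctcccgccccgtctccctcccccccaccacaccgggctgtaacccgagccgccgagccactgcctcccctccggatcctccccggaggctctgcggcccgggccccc
ADAMTS10 (chr19:8610716-8610965, minus strand): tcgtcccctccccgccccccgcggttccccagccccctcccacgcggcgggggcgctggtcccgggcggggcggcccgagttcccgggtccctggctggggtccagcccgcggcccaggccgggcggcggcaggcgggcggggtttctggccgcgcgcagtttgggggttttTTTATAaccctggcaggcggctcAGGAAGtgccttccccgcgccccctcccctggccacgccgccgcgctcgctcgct
The windows of MMP24 and MMP23B, both called higher, held none of the 3 motifs. The window of ADAMTS10 held the letters TATAAA on the opposite strand, printed as TTTATA, and an ETS match on the printed strand. Their first printed letters lie 78 and 55 bases before the start. These are letter matches, and whether they act as a TATA box or an ETS site was not tested. The other ADAMTS10 window, at chr19:8592217-8592466, held none. GC content was 77.6% for MMP24, 76.4% for MMP23B and 78.4% for ADAMTS10, against a median of 58.0% over all 35116 promoter windows and 66.4% over the 28. AP-1 letters stood in 1 of the 28 windows, that of undetected MMP7, and in 4.203% of all windows. No window was held for MMP1, MMP3, MMP9, MMP13, MMP19 or ADAMTS9, so the search does not cover these genes called in both lines. ETS letters stood in 6 of 28 and 28.7% of all. TATAAA letters, on either strand and at any position, stood in 7 of 28 and 10.72% of all.

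The plot of ratios shows where OR1 and OR2 part. Between the resistant lines, 2 genes were higher and 2 lower in OR2 than in OR1, of 26 with that ratio, against 2.48% and 2.89% of all 21451 genes. The count of 4 became 0 with normexp, 1 when detection on all 3 arrays was required and 7 with spike-in scaling. MMP3 and ADAMTS6, the 2 genes lower in OR2, are not among these 7. With spike-in scaling the log2 ratios to H1975 were at least 2.64 in OR1 and 1.87 in OR2 for MMP3. For ADAMTS6 they were -0.52 and -1.32. MMP2 and MMP3 are 2 of the 4 genes called at first. ADAMTS17 (probe at hg19 chr15:100603864-100603923), a protease of fibrillin-rich matrix, gave 11.5 in H1975 and 22.5 in OR2 and was not detected in OR1 (2.0). It was at least 2.72-fold higher in OR2 than in OR1, and its second probe was detected in OR2 alone, at 19.1. ADAMTS6 (NM_197941, probe at hg19 chr5:64447355-64447414) gave 28.2 in H1975, 29.7 in OR1 and 10.74 in OR2. OR2 was thus 0.38 of H1975 and 0.36 of OR1 (technical SD of each log2 ratio 0.32), and a second probe, at 15.8 and 15.4, was likewise not detected in OR2 alone (4.3). With normexp the ADAMTS6 ratio of OR2 to H1975 was 0.71.

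**Figure D3:**
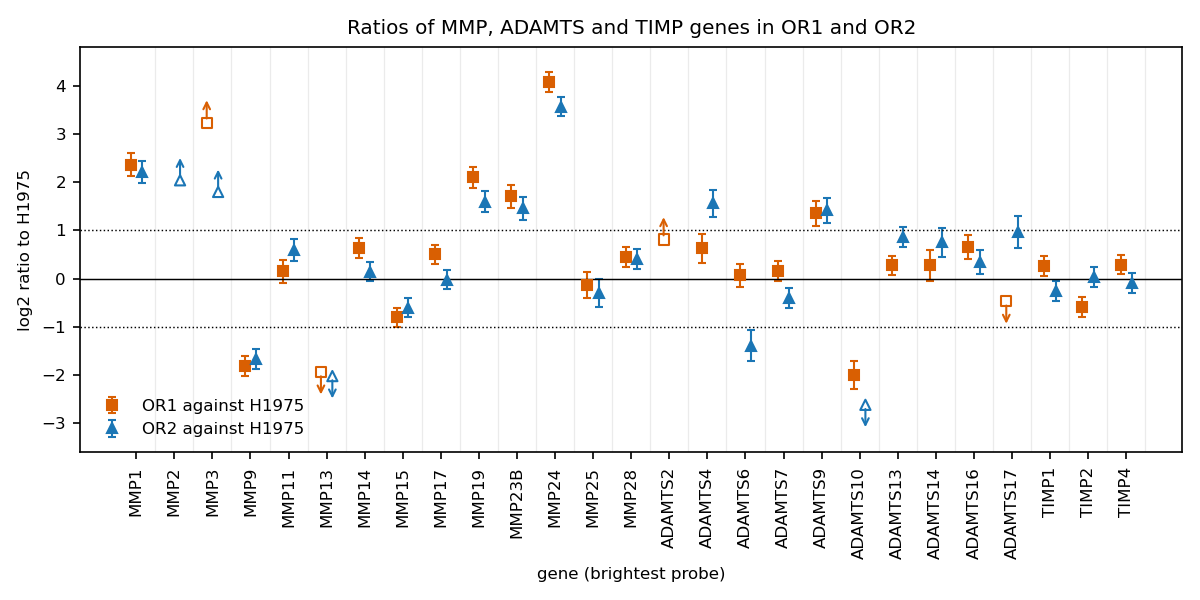
Log2 ratio of OR1 (squares) and OR2 (triangles) to H1975 for each detected MMP, ADAMTS and TIMP gene, with 1 array per line. Bars are the technical SD from the scanner software, open symbols with arrows are bounds where 1 side was not detected, and dotted lines mark the call limits of 1 and -1. MMP24 reaches 4.07 and 3.57, and the 3 TIMPs stay between -0.59 and 0.29.

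Of the remaining detected ADAMTS genes, ADAMTS4 passed a call limit in 1 line. ADAMTS4 (aggrecanase 1, probe at hg19 chr1:161159646-161159705) gave 14.2 in H1975, 21.9 in OR1 and 41.9 in OR2, 1.55-fold and 2.96-fold higher. With normexp background correction its OR2 ratio was 1.55 and was not called. The procollagen N-propeptidases, which trim fibrillar procollagens, were weakly detected or not. ADAMTS2 gave 14.0 in OR1 and was not detected in H1975 (3.7) or OR2 (1.7), and ADAMTS14 gave 12.4, 15.0 and 20.9. ADAMTS13, which cleaves von Willebrand factor, gave 358.4, 432.6 and 648.4, with a ratio of 1.81 in OR2. ADAMTS16 gave 25.1, 39.3 and 31.8. ADAMTS2, ADAMTS4 and ADAMTS13 each had a further probe that was not detected in any line.

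ADAMTS7, which cleaves the cartilage protein COMP, had 4 probes that disagree in level. The brightest (probe at hg19 chr15:79051790-79051849) gave 52512, 58795 and 39865. Another gave 77.6, 86.0 and 62.5, and the other 2 were not detected in any line. The 2 detected probes had similar ratios all the same, 1.12 and 1.11 in OR1 and 0.76 and 0.81 in OR2.

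No TIMP was called in either line, except that scaling on spike-in probes put TIMP2 at 0.44 of H1975 in OR1. TIMP1, the secreted inhibitor that blocks most soluble MMPs, gave 3274 in H1975, 3923 in OR1 and 2747 in OR2. TIMP2, which also takes part in the activation of pro-MMP2 at the cell surface, gave 10871, 7246 and 11089. This is a ratio of 0.67 for OR1 and 1.02 for OR2 (technical SD of each log2 ratio 0.20). TIMP4 gave 540.0, 659.5 and 505.0. Their log2 ratios ranged from -0.59 to 0.29, while the 23 MMPs had a median of 0.50 in OR1 over 13 genes with a ratio and 0.49 in OR2 over 14. Spike-in scaling moved every OR1 ratio down by 0.60 on the log2 scale, more than this median, and OR2 ratios up by 0.08.

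Genes that act on or with these proteases were taken from lists of genes grouped by function. Of 13 regulators of MMP activity, 11 were detected. None was higher in both lines and 2 were lower in both, where 5.09% and 6.32% of all genes were. In 1 line alone, 3 were called higher in OR1 and 2 in OR2, beside 9.17% and 7.72% of all genes higher in these lines. PLAU, the urokinase that starts the plasmin cascade upstream of several pro-MMPs, gave 28935 in H1975, 6764 in OR1 and 10025 in OR2. PCSK5, a proprotein convertase, gave 1408, 21.0 and 35.7, with ratios of 0.015 and 0.025. The gene with the highest ratio in its less changed line was LRP1, an endocytic receptor for proteases and their inhibitors, at 46.4, 88.9 and 93.2. RECK, a membrane-bound MMP inhibitor, gave 50.7, 107.7 and 85.5, and BSG (CD147), an inducer of MMPs, gave 2958, 6203 and 4934.

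Transcription factors of the AP-1, ETS and RUNX families are known to bind MMP promoters. Of 13 such genes, 12 were detected and none was called higher in either line, where 9.17% (OR1) and 7.72% (OR2) of all genes were. JUNB was lower in both, at 546.2 in H1975, 225.9 in OR1 and 229.2 in OR2. JUND gave 208.6, 318.1 and 318.6. JUN gave 710.5, 358.4 and 288.3, a ratio of 0.50 in OR1, just above the call limit, and of 0.41 in OR2. ETV4 gave 104.6, 64.6 and 49.6 and was lower in OR2 alone, at a ratio of 0.47. In OR2, 3 of the 12 were thus lower, beside 8.7% of all genes.

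Related proteases and proteins showed calls in both directions. Of 9 ADAM genes, which encode membrane-bound sheddases and relatives, 8 were detected. In both lines 1 was higher and 1 lower, beside 5.09% and 6.32% of all genes. ADAM8 was higher in both lines, at 761.2, 3010.1 and 2289, and ADAM19 was lower, at 63.8 in H1975 and not detected in OR1 (2.3) or OR2 (4.1). Of the 7 ADAMTS-like genes, whose products lack the protease domain, 6 were detected and 2 were higher in both lines, beside 5.09% of all genes. ADAMTSL2 gave 15.5, 159.6 and 123.5, or 10.3-fold and 7.98-fold higher, and ADAMTSL4 gave 21.7, 74.7 and 51.1. PAPLN had the lowest ratio in its less changed line, at 159.0, 142.4 and 207.1.

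Among 18 matrix proteins cut by these enzymes, 9 were detected and none was called higher in either line, beside the same shares of all genes. In OR2, 4 of the 9 were lower, beside 8.7% of all genes. Of these, 1 was lower in both lines, where 6.32% of all genes were. COL1A2, a chain of type I collagen, gave 126.8 and 20.5 in H1975 and OR1 and was not detected in OR2 (3.5). COL1A1, the other chain, gave 292.6, 424.1 and 53.6, and fibronectin (FN1) gave 46.8, 34.4 and 9.6, so both were called lower in OR2 and in OR2 alone. COL4A2, a basement membrane collagen, gave 53.4, 36.0 and 26.6 and was also called lower in OR2 alone. COMP was not detected in H1975 (2.7) and gave 13.6 and 12.5 in the resistant lines.

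**Figure D4:**
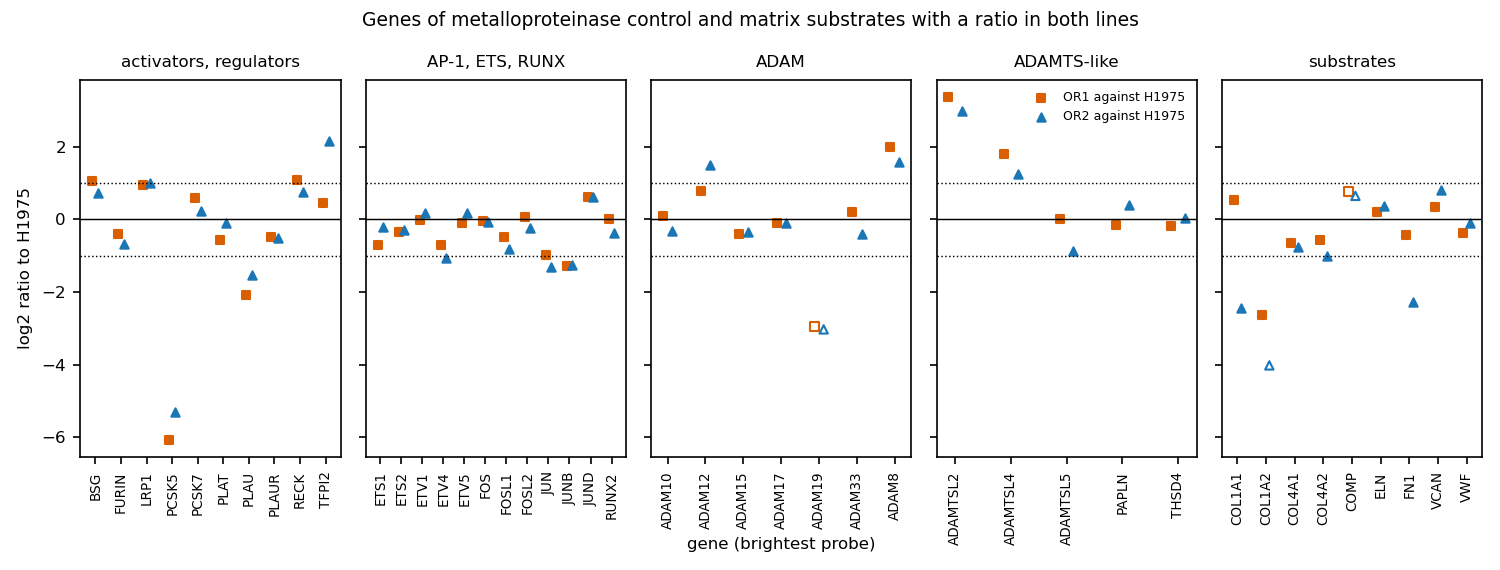
Log2 ratio of OR1 (squares) and OR2 (triangles) to H1975 for genes with a ratio in both lines, in 5 lists, with 1 array per line. Open symbols are bounds where 1 side was not detected, and dotted lines mark the call limits of 1 and -1. The transcription factors range from -1.27 to 0.61 in OR1. PCSK5, PLAU, JUNB, ADAM19 and COL1A2 lie below -1 in both lines.

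The cell type label was checked with marker genes. All 8 epithelial markers were detected in every line, and their scaled intensities summed to 292698 in H1975, 114898 in OR1 and 124770 in OR2. EPCAM, CDH1, KRT7, KRT19 and CLDN4 were called lower in both resistant lines, where 6.32% of all genes were. KRT8 (ratios of 1.12 and 0.96) and KRT18 (0.88 and 0.81) were not called, and MUC1 was lower in OR1 alone (0.24 and 0.59). Of 6 lung epithelial markers, 4 were detected in every line and SFTPA1 and SFTPB in none. SFTPC, a surfactant protein gene, was called higher in both resistant lines, at 15.3, 57.7 and 74.4, and NKX2-1, a lung lineage factor, was lower in OR1, at 528.7, 133.1 and 721.5. Fibroblast markers summed to 441.6, 501.9 and 70.0, carried mainly by the type I collagen genes named above. LUM, which encodes lumican, was detected in OR1 alone, at 43.3, with COL3A1, DCN, PDGFRA, POSTN and THY1 not detected in any line. Endothelial markers summed to between 58.6 and 73.1 and leukocyte markers to between 16.5 and 20.1. The part of these shifts in the protease levels was not tested.

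Treating OR1 and OR2 as 2 samples against H1975 gave a fit with 1 residual degree of freedom, in which the spread between the clones stands in for replicate error. The error of the single H1975 array is not estimated in it, and genes called in both lines were already alike in the clones, so its p-values are a description. Undetected signals entered the fit as measured, so for MMP3, MMP13 and ADAMTS10 it rests in part on signals below detection. For MMP3 it gave a log2 ratio of 4.65, where the bounds were 3.23 in OR1 and 1.80 in OR2. In this limma fit over 22418 genes, 2.59% had an adjusted p under 0.05 and 1 of the 27 detected genes did, MMP24, with an adjusted p of 0.0358. The other 8 genes called in both lines had adjusted p between 0.056 and 0.137 in limma. With normexp, 3 of the 6 higher genes and 1 of the 3 lower genes stayed past the limits in both lines. MMP1, MMP19 and MMP24 were the higher genes under that correction and MMP9 the lower one, while the ratios of MMP3 were 2.72 and 1.46, those of MMP23B 1.91 and 1.69 and those of ADAMTS9 1.49 and 1.502. MMP13 had ratios of 0.72 and 0.65 and ADAMTS10 of 0.60 and 0.49.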

How the data were processed

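Per the labels and the study's methods, total RNA of H1975, OR1 and OR2 was amplified, labelled with Cy3 and hybridized to 1 Agilent human array per line. The deposited scanner files hold each spot's intensity after background subtraction and spatial detrending on its array, with no scaling between arrays, and the authors' second table holds normalized intensities, 1 per probe, by a method not given in the sources used here. The file headers name Feature Extraction 10.7.1.1 and the submitters' processing notes name 9.5.1.1.

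Control and outlier spots were left out (45, 61 and 46 outlier spots in H1975, OR1 and OR2), spots of the same probe were combined as mean log2 intensity, and every array was scaled to the 75th percentile of its non-control probes, in Python 3.11.15 with numpy 2.4.6 and pandas 2.3.3. The probe with the highest mean over the arrays stood for a gene, and 10 of the 46 genes had more than 1 probe. Precision is limited by 1 array per line, and the technical SD covers the scanner's error alone. Alternatives changed the scaling, background correction (normexp, offset 50), detection filter, probe choice and ratio limit, and limma 3.58.1 (R 4.3.3) with Benjamini-Hochberg adjustment was run with OR1 and OR2 as 2 samples. The ratio calls and the limma fit were tested on simulated data. Probe positions are hg19 from the scanner files. Of 45 member accessions of the NM type, 45 matched RefSeq under the same symbol.

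The members and lists were chosen with earlier results of these data known. Every detected member is described, and from each list of related genes those called in both lines and those with the highest and lowest ratio in the less changed line are named, while RECK, BSG, JUN, ETV4, COL1A1, COL4A2, FN1, A2M, TFPI2, ADAM12, NKX2-1, SFTPC and LUM were chosen after their values were seen. 1 gene planned for the list of matrix substrates was left out of it and is not reported here.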

Additional observations from a re-analysis of the deposited data

How the results depend on the processing

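No paired analysis was possible because each line has 1 array, and the slide could not be fitted as a block because all 3 arrays share it. Over 520 ratios of single genes under the 10 alternatives that can change a ratio, 454 moved by no more than 1 technical SD. For bounds, the median of 0.21 over the other ratios was used. The other 66 moved by more, 26 with spike-in scaling and 27 with normexp. The 454 include ratios that could not move, since the median over probes leaves genes with 1 probe unchanged. Dropping the detection filter can likewise change bounds alone. None of the called ratios changed sign. With normexp, genes lower in OR1 numbered 1, higher in OR2 3, lower in OR2 2, higher in both 3, lower in both 1 and differing between OR1 and OR2 0, against 3, 8, 4, 6, 3 and 4. Scaling on the 7 spike-in probes shifted all genes by a median log2 ratio of -0.60 for OR1 and 0.08 for OR2 and gave 6 genes lower in OR1 and 7 differing between the lines. Under it the OR1 ratios of TIMP1, TIMP4, MMP11, MMP17, MMP28, ADAMTS6, ADAMTS7, ADAMTS13 and ADAMTS14 lay below 1, TIMP2 (0.44), MMP15 (0.38) and ADAMTS17 (a log2 ratio of at most -1.07) became lower in OR1, and ADAMTS9 (0.76 on the log2 scale) was no longer higher there. Requiring detection on all 3 arrays left fewer genes, with 1 lower in OR1, 2 lower in OR2, 1 lower in both and 1 differing. Without a detection filter 7 were lower in OR1, 8 lower in OR2, 6 lower in both and 8 differed. At a ratio of 4, 1 was lower in OR1, 3 higher and 2 lower in OR2, 2 higher and 1 lower in both, and 0 differed. At a ratio of 1.5, 10 were higher and 5 lower in OR1 and 8 differed. By limma's adjusted p, 1 was higher and 0 lower in both lines, with 6 and 3 of 27 at an unadjusted p under 0.05, where 18.6% of all genes had one. Normexp as run here adds 50 to every signal, and an added constant brings ratios of dim genes closer to 1. Before scaling, ADAMTS9 had signals of 27.5, 61.6 and 75.4 in H1975, OR1 and OR2, and MMP24 of 361.9, 5324 and 4401. Spike-in scaling moves all ratios of a line by the same amount. What else contributed to these shifts was not tested. MMP24 ratios stayed between 11.1 and 17.3 in OR1 and between 10.5 and 12.5 in OR2 under every alternative with a ratio. MMP24 has 1 probe and was detected in all 3 lines, so the probe choice and the detection filter could not move its ratios. Where 1 side was not detected, as for MMP2 in OR2, MMP3 and MMP13 in both lines, ADAMTS10 in OR2 and ADAMTS17 in OR1, the ratio to H1975 is a bound.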

Other observations

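Some regulators of these proteases differed in 1 resistant line alone, with no replicate check. A2M, the broad protease inhibitor alpha-2-macroglobulin, was not detected in H1975 (1.9) or OR2 (4.4) and gave 232.1 in OR1, at least 29.1-fold higher than in H1975. TFPI2, a serine protease inhibitor of the matrix, gave 37.6 in H1975, 51.8 in OR1 and 167.1 in OR2, with ratios of 1.38 and 4.44. ADAM12 gave 15.9, 27.3 and 44.5 and passed the ratio of 2 in OR2 alone, at 2.80.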
